A study of Homo sapiens with 5 samples.

Results

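XPC, DDB2, RRM2B, POLH and PCNA are 5 DNA repair genes that are linked to p53, taken by name from 20136 protein-coding genes of the GENCODE annotation. Every peak of the 5 peak lists whose centre lay between 20 kb upstream of the 5′-most transcription start site (TSS) of a gene and the end of that gene was assigned to it, which gave 30 of 123989 peaks. ChIP-seq had mapped ATF3 and p53 in HCT116, a human colon cancer cell line with wild-type p53, and asked where the 2 transcription factors bind in unstressed cells and after DNA damage. There was 1 library per condition and no replicate, so each value below describes a library and carries counting error only.

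ATF3 was precipitated from ATF3-WT cells given DMSO (ATF3-Ctrl) and from ATF3-WT cells exposed for 4 h to camptothecin (CPT) at 1.5 μM (ATF3-CPT), with DMSO-treated ATF3-KO cells (ATF3-KO) as the specificity control. p53 was precipitated from p53-WT cells given the same CPT treatment (p53-CPT) and from p53-KO cells given DMSO (p53-KO). CPT traps topoisomerase I on DNA and causes strand breaks. In all 5 libraries chromatin was fixed with di(N-succinimidyl) glutarate (1 mM, 45 min) and then with formaldehyde (1%, 10 min). ATF3-KO cells were made by successive AAV-mediated recombination at both alleles of exon 3 and selection of single clones, while the p53-KO cells were an existing HCT116 line. Genotype and treatment differ together between p53-CPT and p53-KO, and between ATF3-CPT and ATF3-KO, so their effects cannot be told apart. No library holds p53 from untreated wild-type cells, and the change of p53 binding with CPT was not measured.

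The ATF3 libraries held 12820520 to 15457013 tags and the p53 libraries 1984941 to 3169743 tags. Each peak also has a findPeaks score, a whole number that the peak caller compares with its threshold and that is not adjusted for library size. The lowest listed scores were 9 in both wild-type ATF3 libraries, 11 in ATF3-KO, 7 in p53-CPT and 6 in p53-KO, and a weaker site has no value in the lists. The score and the tags recovered from the normalized tag count are separate counts, and the score was the higher of them in 23.9% to 29.9% of the peaks of a list. The ATF3-KO list held 2231 peaks against 33966 in ATF3-Ctrl, and 2.6% of ATF3-CPT peaks overlapped an ATF3-KO peak. In contrast, 60.9% of the p53-CPT peaks overlapped a p53-KO peak, so the p53 peaks below are read with and without those sites.

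p53 is a transcription factor that is stabilised by DNA damage and binds a motif of 2 adjacent decamers. Its targets include genes of nucleotide excision repair, nucleotide supply and translesion synthesis as well as the cell cycle inhibitors for which it is best known. ATF3 is a stress-induced bZIP protein that binds ATF/CRE and AP-1 elements and can bind p53 itself. XPC and the DDB2 subunit of the UV-DDB complex recognise bulky lesions at the start of nucleotide excision repair. RRM2B encodes the p53-inducible small subunit of ribonucleotide reductase, which makes deoxyribonucleotides. POLH encodes DNA polymerase eta, which copies past UV lesions, and PCNA is the sliding clamp on which replicative and translesion polymerases and repair factors assemble.

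The p53 motif was searched in 300 bp around each p53-CPT peak centre, and the best match is shown for 4 of the genes, since these sites carry the comparison of strong with weak p53 peaks. Capitals mark the motif and lower case marks its flanks or, for DDB2, also a spacer of 1 base between the decamers. Each sequence is written 5′ to 3′ on the strand of its gene in GRCh37 (hg19), at chr11:47236526-47236554 (+) for DDB2, chr20:5100816-5100845 (-) for PCNA, chr3:14220065-14220094 (-) for XPC and chr6:43543970-43543999 (+) for POLH.
DDB2: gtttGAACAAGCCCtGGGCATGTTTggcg
PCNA: tctccACATATGCCCGGACTTGTTCtgcgg
XPC: aagtgGAATTTGCCCAGACAAGCAAcatgg
POLH: tggggACGGTTGCCCGGGCAGGATCcttta

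The DDB2 site matched the motif with 0 mismatches when the spacer was allowed and with 1 mismatch in the best match without a spacer. The RRM2B peak held a match with 1 mismatch, 8 bp from the peak centre in intron 1. The PCNA site had 2 mismatches and the XPC site 3, and the POLH site had 4, which is over the limit of 3 mismatches used here. The motif matches shown for DDB2, XPC and POLH lay in the 5′ UTR of exon 1, and that of PCNA lay 226 bp upstream of the MANE Select TSS.

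All 5 genes had exactly 1 p53-CPT peak in their windows, whereas 21.8% of all protein-coding genes had any. The genes were picked as p53-linked, so the count describes them and does not test them. None of the 5 had a p53-KO peak in its window, against 17.4% of all genes, and thus none of the 5 p53 peaks was among the 60.9% that overlap a p53-KO peak.

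The peak of RRM2B was the highest, with a normalized tag count of 306.0 tags per 10000000 tags of the library (95% exact Poisson interval 248.2 to 373.3, 97 tags), and ranked 212 of 9211. It lay at chr8:103248910-103249228 in intron 1, 2120 bp downstream of the TSS. DDB2 followed with 195.6 (150.0 to 250.7, 62 tags) at chr11:47236392-47236710, centred 26 bp downstream of the MANE Select TSS in exon 1, and ranked 452. Both peaks therefore stood in the top of the list, and they differed by a ratio of 1.56 (95% exact conditional binomial interval 1.13 to 2.19).

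The PCNA peak reached 85.2 (56.1 to 123.9, 27 tags) at chr20:5100680-5100998, 235 bp upstream of the MANE Select TSS, and ranked 1761. DDB2 was 2.30 times as high as PCNA (1.44 to 3.75), and PCNA was 3.0 times as high as POLH (1.37 to 7.25). These intervals exclude a ratio of 1, so the order RRM2B, DDB2, PCNA, POLH holds against counting error.

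POLH and XPC carried the weakest p53 peaks. POLH had 28.4 (12.98 to 53.9, 9 tags) at chr6:43543804-43544122, 41 bp downstream of the TSS in exon 1, and XPC had 25.2 (10.9 to 49.7, 8 tags) at chr3:14219959-14220277, 17 bp upstream of the MANE Select TSS. Both were under the list's median of 41 and had scores of 10 and 9, close to the lowest listed score of 7, and their ratio of 1.13 had an interval from 0.385 to 3.35, so their order was not detectable at this depth. In the list without sites of p53-KO, which holds 3600 peaks, RRM2B ranked 70, DDB2 135, PCNA 491, POLH 1871 and XPC 2232.

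**Figure D1:**
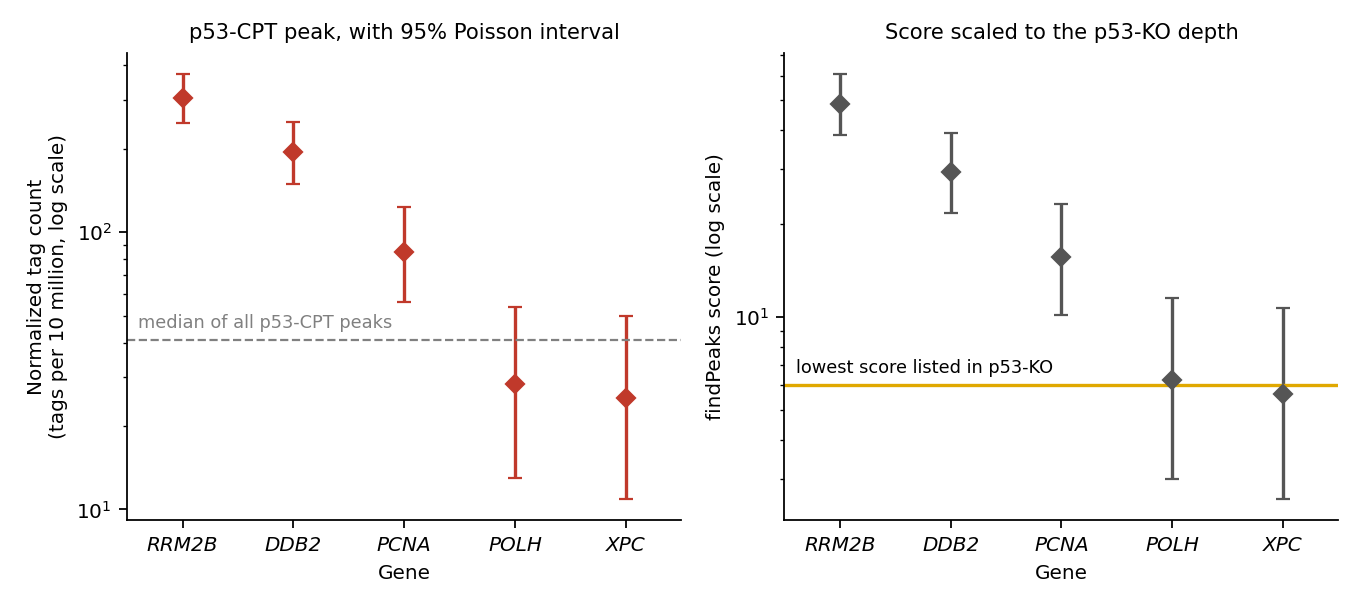
Left, normalized tag count of the single p53-CPT peak of each gene (log axis, tags per 10000000), with 95% exact Poisson intervals and the median of all p53-CPT peaks as a dashed line. Right, the findPeaks score of the same peak scaled to the depth of p53-KO (log axis, 95% exact Poisson intervals), where the intervals of POLH (6.26) and XPC (5.64) include 6, the lowest score listed in p53-KO, and those of the other 3 genes lie above it.

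The p53-KO library was shallower than p53-CPT, which bears on what the absence of a p53-KO peak can show. Scaled to the depth of p53-KO, the scores of the p53-CPT peaks became 48.8 (38.6 to 61.0) at RRM2B, 29.4 (21.6 to 39.1) at DDB2 and 15.7 (10.1 to 23.1) at PCNA, all over the lowest score of 6 that p53-KO listed. At POLH and XPC they became 6.26 (3.003 to 11.5) and 5.64 (2.58 to 10.7), with intervals that include 6. A peak of the same strength could have gone unlisted at these 2 genes, so the p53-KO list does not separate their p53 peaks from background. All these intervals cover the counting error of p53-CPT alone, and a listed peak also had to stand out from its surroundings. At RRM2B, DDB2 and PCNA they thus do not ensure that such a peak would have been listed.

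The motif results can be set beside all p53-CPT peaks on chromosomes 1 to 22, X and Y. A match with at most 3 mismatches was present in 4 of the 5 peaks of these genes, against 19.9% of all p53-CPT peaks, 44.5% of those without a p53-KO peak and 6.73% of regions 1000 bp to either side. Matches with at most 1 mismatch, as at DDB2 and RRM2B, occurred in 16.1% of the peaks without a p53-KO peak and 0.0606% of the side regions. Matches with at most 4 mismatches, as at POLH, occurred in 33.5% of the side regions, so a match of that kind is common by sequence alone.

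**Figure D2:**
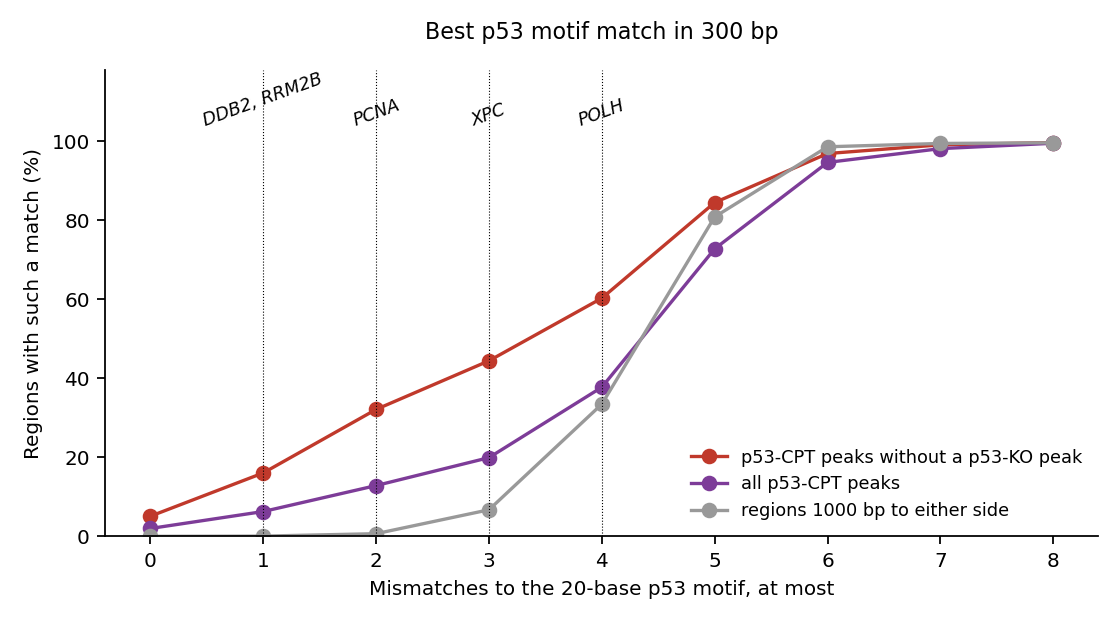
Cumulative share of regions (%) whose best match to the 20-base p53 motif in 300 bp has at most the given number of mismatches, for all p53-CPT peaks, for those without a p53-KO peak and for regions 1000 bp to either side. Dotted lines mark the 5 genes, with DDB2 and RRM2B at 1 mismatch, PCNA at 2, XPC at 3 and POLH at 4, where the side regions reach 33.5%.

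ATF3 peaks were also present at these genes. In ATF3-CPT all 5 genes had at least 1 peak in the window, against 81.0% of all protein-coding genes, and in ATF3-Ctrl 4 of 5 had one, against 65.2%. With so many ATF3 peaks in the genome, these shares are near the background. POLH was the 1 gene of 5 with an ATF3-KO peak, against 11.4% of all genes. All 5 genes had both a p53-CPT and an ATF3-CPT peak, against 19.6% of all genes. The genes were picked as p53-linked, so this count shows no joint enrichment. Of the 4383 genes with a p53-CPT peak, 3949 also had an ATF3-CPT peak.

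The position of the ATF3 peaks relative to the p53 peak differed between the genes. At XPC, POLH and PCNA the p53-CPT peak shared at least 1 bp with an ATF3-CPT peak, and at RRM2B and DDB2 it did not. This was 3 of 5, against 10.5% of all p53-CPT peaks and 19.0% of those without a p53-KO peak. At XPC the 2 centres lay 5 bp apart, with 125 bp shared. At POLH they lay 120 bp apart, with 102 bp shared. The PCNA peaks met at their edges, with 8 bp shared and centres 214 bp apart. The nearest ATF3-CPT centre was 630 bp from the p53 centre at DDB2 and 1990 bp at RRM2B. The count of 3 rests on weak sites. The p53-KO list does not separate the p53 peaks of XPC and POLH from background. The ATF3-CPT peak of POLH also overlapped an ATF3-KO peak. With centres within 100 bp, 1 gene remained (XPC), against 7.33% of all p53-CPT peaks.

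The 3 genes with a shared site thus had the 3 lowest p53 levels of the 5. Among all 3600 p53-CPT peaks without a p53-KO peak, the median normalized tag count was 31.5 both for the 683 that overlapped ATF3-CPT and for the 2917 that did not. The share that overlapped was 17.6% under 30, 18.0% from 30 to 60, 21.6% from 60 to 120 and 21.1% from 120 to 240, the range of DDB2, and it was 38.1% of the 97 peaks at 240 or more, the range of RRM2B. The pattern at 5 genes is given as a description.

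**Figure D3:**
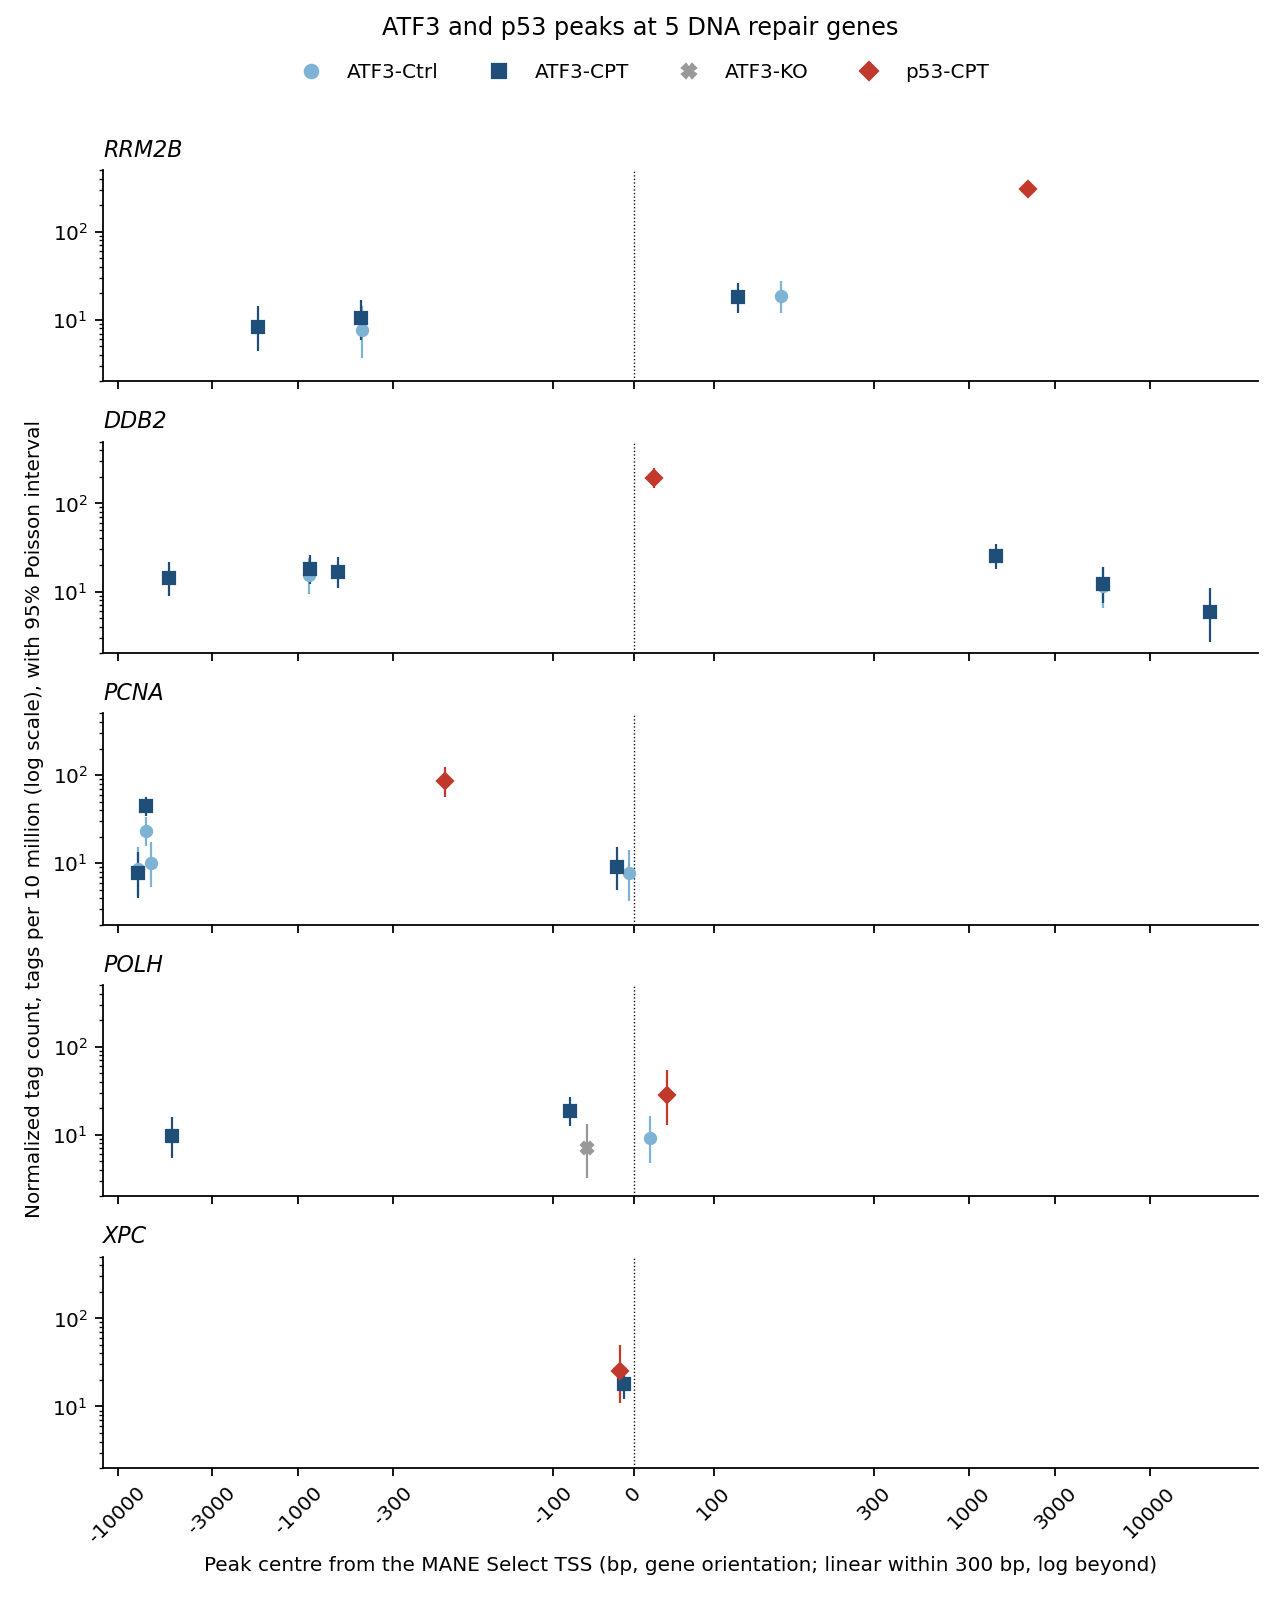
Normalized tag count of every listed peak (log axis, tags per 10000000, with 95% Poisson intervals) against the distance of its centre from the MANE Select TSS (bp, linear within 300 bp and log beyond), with 1 panel per gene and 1 symbol per library. p53-CPT diamonds at RRM2B (306.0) and DDB2 (195.6) stand apart from every ATF3 symbol, while at XPC the p53 and ATF3-CPT symbols lie 5 bp from each other; p53-KO has no peak in any panel.

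At XPC, the lesion sensor, the ATF3-CPT peak was centred 12 bp upstream of the MANE Select TSS at chr3:14220051-14220175, with a normalized tag count of 18.1 (12.0 to 26.2) and a score of 29. No ATF3-Ctrl or ATF3-KO peak was listed in the window. Scaled to the depth of ATF3-Ctrl, the score of the ATF3-CPT peak became 24.3 (16.3 to 34.9) against the lowest score of 9 in that list. By total tags, the scaled score and its interval were therefore above that lowest score. The interval covers the counting error of ATF3-CPT alone. This scaling leaves out the share of tags in peaks, 12.76% in ATF3-CPT and 5.6% in ATF3-Ctrl. Scaling by tags in peaks lowers a level taken from ATF3-CPT to ATF3-Ctrl further, by a factor of 0.439. It was not applied to this score, so the absence is not shown to be a difference between the libraries. The same peak contained the p53 motif match with 3 mismatches shown above, the single ATF3-CPT peak of 15 with one. Matches with at most 3 mismatches occurred in 6.73% of regions 1000 bp to either side of p53-CPT peaks. The share of all ATF3-CPT peaks is not given here, so the match at XPC is a description. The TSS of LSM3 lies 216 bp upstream in the opposite orientation, and the peaks cannot be assigned to XPC rather than LSM3 from position.

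DDB2 had the most ATF3 sites, with 6 ATF3-CPT peaks and 2 ATF3-Ctrl peaks. The peak 1403 bp downstream of the MANE Select TSS, in coding exon 2, was the highest of the 6 with 25.2 (17.9 to 34.5). Upstream peaks in ATF3-CPT were centred at 5174 bp with 14.2 (8.92 to 21.6), at 859 bp with 18.1 (12.0 to 26.2) and at 604 bp with 16.8 (10.99 to 24.7). Further peaks lay in intron 3, 5544 bp downstream, with 12.3 (7.40 to 19.2) and in intron 7, 21659 bp downstream, with 5.8 (2.66 to 11.1). The intron 7 peak had the lowest listed score, 9, and its nearest TSS was that of NR1H3.

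ATF3-Ctrl listed 2 of these DDB2 sites, the one upstream with 15.4 (9.44 to 23.9) and the one in intron 3 with 11.6 (6.48 to 19.1). Neither differed from ATF3-CPT beyond counting error, with ratios of 1.17 (0.637 to 2.20) and 1.06 (0.511 to 2.24). At the depth of ATF3-Ctrl by total tags, the score of the exon 2 peak became 27.6 (19.0 to 38.8). Those of the peaks 604 and 5174 bp upstream became 23.5 (15.6 to 33.9) and 17.6 (10.9 to 26.9), all over the lowest score of 9. As at XPC, this scaling leaves out the larger share of tags in peaks in ATF3-CPT. The absence of these peaks from ATF3-Ctrl is thus not shown to be a difference between the libraries. The score of the intron 7 peak became 7.54 (3.45 to 14.3), so its absence from ATF3-Ctrl is uninformative.

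RRM2B had ATF3-CPT peaks 1664 bp upstream with 8.4 (4.48 to 14.4), 451 bp upstream with 10.4 (5.92 to 16.8) and 130 bp downstream of the TSS in exon 1 with 18.1 (12.0 to 26.2). In ATF3-Ctrl the corresponding values were no peak, 7.7 (3.70 to 14.2) and 18.5 (11.9 to 27.6). At the ATF3 sites near the RRM2B TSS the libraries did not differ beyond counting error, at ratios of 1.34 (0.572 to 3.30) and 0.977 (0.546 to 1.76). No ATF3 peak was listed at the intron 1 site where p53 had its highest level among the 5 genes.

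POLH had an ATF3-CPT peak 79 bp upstream of its TSS with 18.8 (12.6 to 26.9), and another 4999 bp upstream with 9.7 (5.43 to 16.0). XPO5 starts 147 bp upstream of POLH in the opposite orientation, and its TSS was the nearest to both peaks. ATF3-Ctrl had a peak 20 bp downstream of the POLH TSS with 9.3 (4.79 to 16.2). It overlapped the ATF3-CPT peak at the promoter only in part, with centres 99 bp apart, and the ratio of the 2 peaks was 2.02 (1.002 to 4.36). ATF3-KO listed the same promoter with 7.0 (3.21 to 13.3) and a score of 11, the lowest in its list. The POLH promoter therefore gave signal in cells without ATF3, at a level whose interval overlaps that of ATF3-Ctrl and, narrowly, that of ATF3-CPT, and the ATF3 antibody signal there is not separated from background in ATF3-Ctrl. The p53-CPT peak of POLH overlapped all 3 of these ATF3 library peaks.

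At PCNA, the clamp, ATF3 peaks fell into 2 clusters. The MANE Select TSS carried weak peaks, 9.1 (4.95 to 15.2) in ATF3-CPT and 7.7 (3.70 to 14.2) in ATF3-Ctrl, centred 21 and 6 bp upstream of it. The other cluster lay near the 5′-most PCNA TSS, 6668 bp upstream of the MANE Select TSS, where the TSS of CDS2 also lies. Here ATF3-CPT reached 44 (34.2 to 55.8) at chr20:5107459-5107583, the highest ATF3 value at the 5 genes, and ATF3-Ctrl reached 23.2 (15.6 to 33.1). This peak was 52 bp from the TSS of CDS2 and 249 bp from that of PCNA. A smaller site 7711 bp upstream had 7.8 (4.01 to 13.6) in ATF3-CPT and 8.5 (4.24 to 15.2) in ATF3-Ctrl, and a peak of 10.0 (5.35 to 17.2), 6553 bp upstream, was listed in ATF3-Ctrl and not in ATF3-CPT.

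The PCNA promoter is shown because it holds the p53 motif and part of the ATF3-CPT peak. The motif itself lies outside that peak. The sequence is the 250 bases before the MANE Select TSS, chr20:5100605-5100854 (-) in GRCh37, 5′ to 3′ on the PCNA strand, with 3 elements in capitals, in order the p53 motif, an AP-1 core with 1 mismatch to TGAGTCA and a CRE core with 1 mismatch to TGACGTCA.
PCNA promoter: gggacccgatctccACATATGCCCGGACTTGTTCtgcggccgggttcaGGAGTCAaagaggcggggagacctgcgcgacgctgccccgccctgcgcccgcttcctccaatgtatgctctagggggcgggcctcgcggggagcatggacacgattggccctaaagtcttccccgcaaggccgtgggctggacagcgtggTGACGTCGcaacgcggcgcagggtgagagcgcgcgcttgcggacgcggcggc

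The p53 motif was 9 bp from the centre of the p53-CPT peak. The CRE core with 1 mismatch lay 49 bp upstream of the TSS and 28 bp from the centre of the ATF3-CPT peak and was separated from the p53 motif by 164 bp. The AP-1 core with 1 mismatch lay 14 bp from the p53 motif and 178 bp from the centre of the ATF3-CPT peak. Cores with 1 mismatch are common, since 81.8% of all ATF3-CPT peaks held an ATF/CRE or AP-1 core with at most 1 mismatch in 200 bp around the centre.

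Exact cores were searched at every ATF3 peak, on both strands, as TGACGTCA for ATF/CRE and as TGACTCA or its reverse complement TGAGTCA for AP-1. In 200 bp around the centre, an exact AP-1 core was found at 5 of the 15 ATF3-CPT peaks of these genes. This compares with 42.6% of all ATF3-CPT peaks and 3.37% of regions 1000 bp to the side. No peak of the 15 held an exact ATF/CRE core, against 1.46% of all. With at most 1 mismatch a core was present in 11 of 15. The share of exact AP-1 cores was close to that of the whole list.

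The 5 AP-1 sites were 3 at DDB2, 1 at RRM2B and 1 at POLH, and each was found around the centre of a peak that ATF3-Ctrl did not list. The RRM2B core began directly past the end of its peak, and the others lay inside theirs. None of the 9 ATF3-Ctrl peaks held an exact AP-1 core in the same search. The share among all ATF3-Ctrl peaks is not given here, so these counts describe the 5 genes and show no gain of AP-1 sites with CPT. The sites of DDB2 and POLH are shown with the core in capitals, named by their gene and the distance of the peak centre from the TSS, on the + strand at chr11:47231324-47231352, chr11:47237892-47237920, chr11:47258175-47258203 and chr6:43538863-43538891 in that order.
DDB2, 5174 bp upstream: catccaggaacTGACTCAgagcaagaaga
DDB2, 1403 bp downstream, exon 2: agcagaagatgTGACTCAgactgcctctg
DDB2, 21659 bp downstream, intron 7: tgttgtgaagaTGAGTCAgtatacttaaa
POLH, 4999 bp upstream: gttcttcagccTGAGTCActtgtcctgca

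These AP-1 sites belonged to peaks centred 1403 to 21659 bp from the MANE Select TSS. The ATF3 peaks closest to the TSS of each gene had no exact core. The share of AP-1 cores by distance from the TSS is not given for all ATF3-CPT peaks, so this contrast is a description. The core was 13, 22, 5 and 46 bp from the peak centre at the 4 sites shown. At the RRM2B site, 1664 bp upstream, it was 66 bp away. For the peaks at POLH and RRM2B that ATF3-Ctrl did not list, the scores scaled to its depth were 12.6 (7.03 to 20.7) and 10.05 (5.19 to 17.6), with intervals that include the lowest score of 9, so those 2 absences do not show a difference between the libraries.

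The ratio of ATF3-CPT to ATF3-Ctrl could be taken at 8 sites of 4 genes that both libraries listed. XPC had none. Of the 9 ATF3-Ctrl peaks at these genes 8 had a partner in ATF3-CPT (79.8% in the whole list), and of the 15 ATF3-CPT peaks 8 had a partner in ATF3-Ctrl (38.3% in the whole list). Over all 27104 shared sites the median ratio was 1.80, a shift of 0.84 on the log2 scale, with an interquartile range of 1.12 to 2.63.

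The 8 sites had a median ratio of 1.17, below the median of all shared sites. Their ratios ranged from 0.914 (0.369 to 2.29) at the PCNA site 7711 bp upstream to 2.02 at the POLH promoter. The site near CDS2 and the 5′-most PCNA TSS followed with 1.90 (1.22 to 3.02), and the PCNA MANE Select TSS had 1.17 (0.485 to 2.95). A ratio of at least 2 was reached by 1 of the 8, against 43.6% of all shared sites, and a ratio above 1 by 6 of the 8, against 80.4% of all. The intervals of POLH, barely with a low end of 1.002, and of the site near CDS2 excluded a ratio of 1 and the other 6 included it. Relative to the median of all shared sites, POLH and the CDS2 site stood at percentiles 57.2 and 53.3 and the other 6 between 15.9 and 33.7. Scaled by the tags in peaks instead of all tags, the ratios at POLH and at the CDS2 site turned below 1, to 0.888 and 0.833. Of the 9 ATF3-Ctrl peaks at these genes, 8 lay within 2 kb of a TSS of their gene. The authors reported that CPT tended to lower ATF3 binding at promoters. Sites near a TSS were not set apart among all shared sites. Whether the lower ratios are particular to these genes was therefore not tested.

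**Figure D4:**
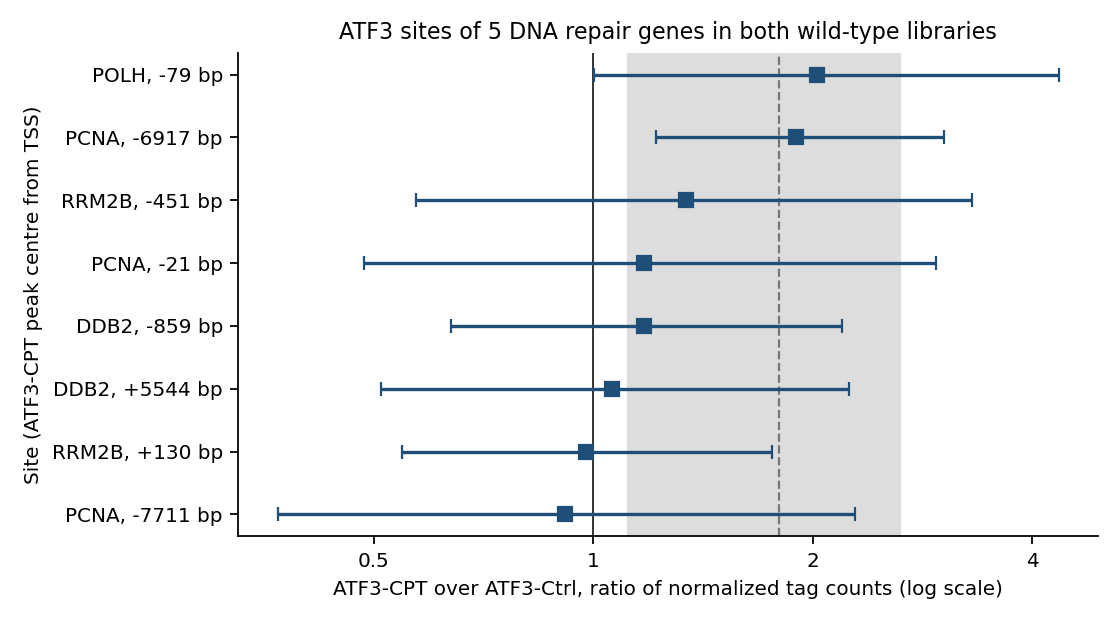
Ratio of ATF3-CPT to ATF3-Ctrl normalized tag counts (log axis) at the 8 ATF3 sites listed in both libraries, named by gene and by the distance of the ATF3-CPT centre from the MANE Select TSS, with 95% exact conditional binomial intervals. The black line is a ratio of 1, the dashed line the median of all 27104 shared sites (1.80) and the grey band their interquartile range (1.12 to 2.63); 6 of 8 sites lie left of the dashed line with intervals that include 1.

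For comparison, 51 other genes of the same repair pathways were examined with the same window. A p53-CPT peak was listed at 12 of them (23.5%), close to the 21.8% of all genes, and at 6 of these 12 it overlapped a p53-KO peak. An ATF3-CPT peak was listed at 50 (98.04%, against 81.0%), an ATF3-Ctrl peak at 45 (88.2%, against 65.2%), an ATF3-KO peak at 10 (19.6%, against 11.4%) and a p53-KO peak at 6 (11.8%, against 17.4%). By pathway, p53-CPT peaks were found at 3 of 22 nucleotide excision repair genes, 4 of 10 translesion synthesis genes, 1 of 6 dNTP supply genes and 4 of 13 genes for clamp loading and PCNA partners.

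The 6 genes whose p53-CPT peak overlapped p53-KO were ERCC2 (123.0) and ERCC4 (101.0), a helicase of TFIIH and a subunit of the incision nuclease, the ligase LIG1 (53.6), the ubiquitin ligase RAD18 (72.6), and the polymerase delta subunits POLD1 (148.3) and POLD3 (72.6), all as normalized tag counts. The other 6 were REV3L (261.9), the catalytic subunit of polymerase zeta, RFC3 (56.8) of the clamp loader, the histone chaperone subunit CHAF1A (37.9), the translesion polymerases POLK (25.2) and REV1 (22.1), and thymidylate synthase TYMS (22.1). The peaks were assigned by the window alone. For POLD1, CHAF1A and POLK the nearest TSS was that of another gene, and the CHAF1A and POLK peaks had the lowest listed score, 7. REV3L was the 1 gene of the 12 at a level between those of RRM2B and DDB2. Its peak lay 924 bp upstream of the TSS and overlapped an ATF3-CPT peak, and its best p53 motif match had 4 mismatches. The p53-CPT peaks of REV1 (1 mismatch), RFC3 and TYMS (3 mismatches each) also overlapped ATF3-CPT. So 4 of these 6 did, beside 3 of the 5 genes described here and 19.0% of all p53-CPT peaks without a p53-KO peak. REV1 and TYMS had 7 tags and a score of 8 each, near the lowest listed score of 7. The RFC3 peak lay 122883 bp from the MANE Select TSS of RFC3.

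Among the same 51 genes the highest-scoring ATF3-CPT peaks belonged to ERCC1, the partner of ERCC4, with 191.5 as its normalized tag count (score 165), to the TFIIH subunit GTF2H3 (score 100), to the lesion sensor subunit RAD23B (95), to the ubiquitin-conjugating enzyme UBE2B (87) and, with a score of 84 each, to RAD18 and the TFIIH subunit GTF2H1. The GTF2H3 peak overlapped an ATF3-KO peak. The ERCC1 peak lay 32007 bp upstream of its MANE Select TSS. The highest score at the 5 genes was 56, at the PCNA site near CDS2.

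**Figure D5:**
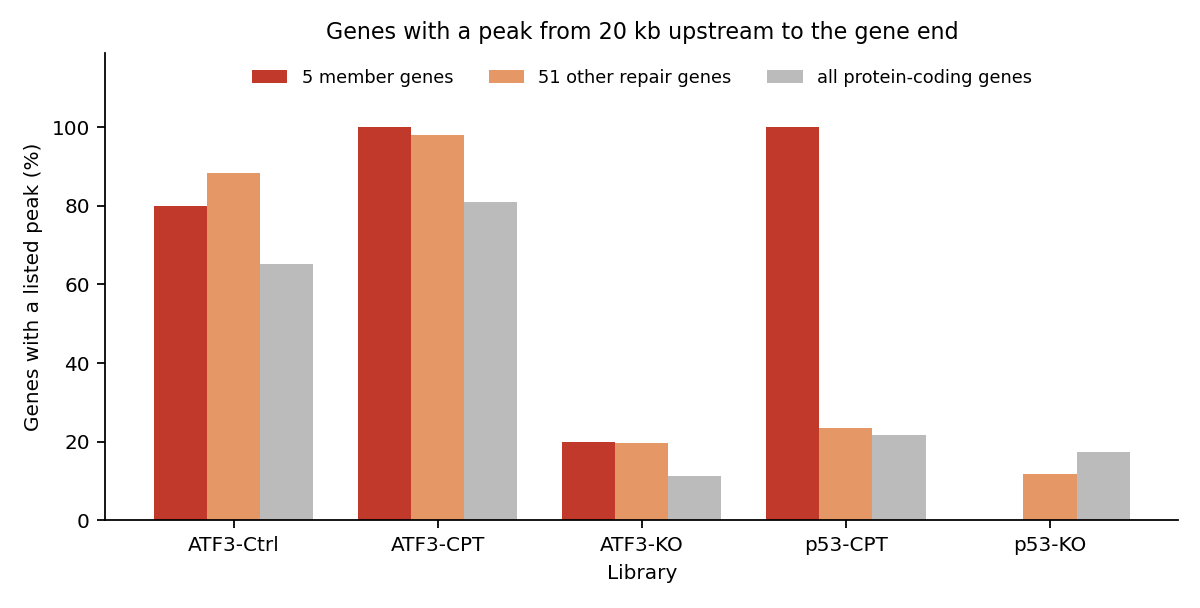
Share of genes (%) with at least 1 listed peak from 20 kb upstream to the gene end in each of the 5 libraries, for the 5 genes described here, 51 other repair genes and all 20136 protein-coding genes. In p53-CPT the 5 genes stand at 5 of 5 while the other repair genes (23.5%) lie close to all genes (21.8%), and in ATF3-CPT all 3 groups are high.

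The genes with the most similar pattern over the 5 libraries, by Euclidean distance of log2 normalized tag counts of the highest-scoring peak per library, were found in the whole annotation. DDB2 was closest to PLK2 (distance 0.326) and CHI3L2 (0.511), and RRM2B to PLK2 (0.648) and CAMK4 (0.663). PLK2 had 242.9 in p53-CPT, 26.5 in ATF3-CPT and 16.2 in ATF3-Ctrl, between the p53 levels of DDB2 and RRM2B. PCNA was closest to ANKH (0.340) and KCNN4 (0.424), POLH to UTP18 (0.311) and SRRM1 (0.460), which also had an ATF3-KO peak, and XPC to ATCAY (0.102) and PCDH1 (0.166).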

How the data were processed

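ChIP-seq reads of 5 libraries were aligned by the authors to hg19 with BWA 0.6.1, and peaks were called per library with findPeaks of HOMER 4.1 with thresholds of 0.001 for the false discovery rate, 4-fold over the surrounding 10 kb and 1e-04 for the local Poisson p-value. The headers show no input library. The authors scaled the signal of each peak to 10000000 tags per library (normalized tag count). The findPeaks score, a whole number that carries the detection threshold, was deposited by the authors without scaling to library size, and how it was counted is not given in the sources used here beyond a maximum of 1 tag per position. The fold over the local region, its p-value, the clonal fold change and the focus ratio, which is a fraction, were deposited by the authors and are not used here.

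Tags were recovered from the normalized tag counts. Windows, TSS and exons came from GENCODE 44 lifted to GRCh37. Overlap meant at least 1 shared bp. Intervals are 95% exact Poisson for levels and exact conditional binomial for ratios, and they cover counting error only, since PCR copies are not independent molecules. With 1 library per condition no test was made, and a call means a ratio of at least 2. The p53 motif (2 decamers without spacer, at most 3 mismatches, both strands) and the ATF/CRE and AP-1 cores were counted on chromosomes 1 to 22, X and Y, also at 1000 bp to the side. The genes named are the 5 genes, the genes whose TSS is nearest to their peaks or shares their promoter, for each the 2 genes of most similar pattern (log2 with a pseudocount of 1, genes that share a peak left out), and of the 51 repair genes those with a p53-CPT peak and the 5 with the highest ATF3-CPT scores, where the fifth is tied. The 5 genes and all lists were chosen with earlier results of these data known. Alternatives covered windows, scores, overlap rules, motif settings and scaling. The windows from the MANE Select TSS and the cores with 1 mismatch were alternatives chosen after seeing the data. The code was tested on simulated peaks (7 of 7 checks passed) and ran in Python 3.11.15 with numpy 2.4.6, pandas 2.3.3 and scipy 1.17.1. For RRM2B no sequence is printed.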

Additional observations from a re-analysis of the deposited data

How the results depend on the processing

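Of 58 alternative values, 45 stayed within their limits. With a score of at least 20, the genes with a p53-CPT peak fell from 5 to 3 (without POLH and XPC) and those with an ATF3-Ctrl peak from 4 to 2. The overlap of p53-CPT with ATF3-CPT fell from 3 genes to 1 when centres had to lie within 100 bp (XPC). The shared sites at least 2-fold higher in ATF3-CPT numbered 1 as reported, 2 by scores, 0 after division by the median of all shared sites and 0 per tags in peaks. The last scaling reversed POLH (0.888) and the PCNA site near CDS2 (0.833), by its construction, since it multiplied each ratio by 0.439. Other windows and p53 motif settings left their counts within 1.5 times the values reported. Depth limits POLH and XPC, with 9 and 8 p53 tags, and the shallow p53-KO library. No paired analysis was possible because each condition had 1 library and no result came from a test.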

Other observations

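The p53-CPT peak of RRM2B held an exact AP-1 core, 26 bp from the peak centre and 34 bp from the p53 motif, although the nearest listed ATF3 centres lay 1936 bp (ATF3-Ctrl) and 1990 bp (ATF3-CPT) away. Of 3550 p53-CPT peaks without a p53-KO peak on chromosomes 1 to 22, X and Y, 212 (5.97%) held an exact AP-1 core in 200 bp around the centre, and 145 of these 212 (68.4%) overlapped an ATF3-CPT peak. The RRM2B peak is thus among the 67 that held the core without such an overlap, and it was the single peak of the 5 genes with a core of this kind. The cores and the p53 peaks were matched by position alone, and whether ATF3 reaches this site below the lowest listed score of 9 was not tested.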
